A study of Homo sapiens with 18 samples.

Results

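H19 and 9 further imprinted genes (IGF2, CDKN1C, PHLDA2, KCNQ1OT1, MEG3, DLK1, PEG10, MEST and PEG3) were followed through the RNA-seq libraries of A549 cells exposed to sodium propionate (SP). The 10 genes were found by their symbol in the GENCODE annotation among the 61541 genes listed, and 8 of the 10 held enough reads to be tested. They were chosen by what the same libraries showed, namely the fold changes of these genes between SP and control and between SP 24 h and SP 3 h, so those values are given as a description, without a p-value. A549 is a human lung adenocarcinoma line, wild type by its label, and SP is the sodium salt of a short-chain fatty acid that gut bacteria make. A first table of counts held the untreated control at 3 days and A549 cells under 5 mM SP for 3 or 12 days. A second table held the untreated control at 24 h and cells under 5 mM SP for 3 or 24 h, with 3 libraries in each of the 6 groups. The SP 12 days cells were compared with a control at 3 days and the SP 3 h cells with a control at 24 h, so that exposure to SP and time in culture cannot be told apart in these 2 comparisons. Comparisons within a table share their control libraries.

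An imprinted gene is read mainly from the copy inherited from a single parent, and the mark that tells the copies apart is DNA methylation laid down in the germ line at an imprinting control region. At the end of the short arm of chromosome 11, the maternal copy gives H19, a long noncoding RNA, and the paternal copy gives the growth factor IGF2, with the insulator protein CTCF bound to the unmethylated control region between them. The same chromosome arm holds a further domain in which the noncoding RNA KCNQ1OT1 is read from the paternal copy and the growth restraining genes CDKN1C and PHLDA2 from the maternal copy. These genes are best known from the placenta and the fetus and are often altered in tumours. Counts per gene do not tell the parental copies apart, so none of the values below is a measure of imprinting itself.

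H19 (ENSG00000130600) is annotated on the minus strand of GRCh38 at chr11:1995166-2004552. The start of IGF2 (ENSG00000167244, chr11:2129112-2158391) lies 153.8 kb from that of H19, the start of KCNQ1OT1 (ENSG00000269821, chr11:2597308-2700003) 695.5 kb, that of CDKN1C (ENSG00000129757, chr11:2883213-2885775) 881.2 kb and that of PHLDA2 (ENSG00000181649, chr11:2928273-2929420) 924.9 kb, all on the minus strand. MEG3 (ENSG00000214548, chr14:100779410-100861031) and DLK1 (ENSG00000185559, chr14:100725705-100738224) are neighbours on the plus strand. PEG10 (ENSG00000242265, chr7:94656325-94669695) and MEST (ENSG00000106484, chr7:130486171-130506465) lie on the plus strand and PEG3 (ENSG00000198300, chr19:56810077-56840728) on the minus strand. H19, KCNQ1OT1 and MEG3 are annotated as long noncoding RNAs and the other 7 as protein coding.

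The start regions of H19 and MEG3, the 2 noncoding members with the largest fold changes, are shown from RefSeq (GRCh38.p14), from 250 bases before the start to 50 after it and 5′ to 3′ on the gene's strand, with CpG dinucleotides, the bases that carry DNA methylation, in capitals. The H19 window (chr11:2001217-2001516, minus strand) starts inside the longer gene body of the GENCODE annotation, and the MEG3 window (chr14:100825858-100826157, plus strand) is the first of 3 overlapping windows.
H19: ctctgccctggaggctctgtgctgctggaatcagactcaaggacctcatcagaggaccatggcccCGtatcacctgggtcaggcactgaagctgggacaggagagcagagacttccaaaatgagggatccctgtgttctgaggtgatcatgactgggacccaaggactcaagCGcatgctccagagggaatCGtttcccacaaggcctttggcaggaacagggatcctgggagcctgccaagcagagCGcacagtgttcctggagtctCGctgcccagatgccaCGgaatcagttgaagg
MEG3: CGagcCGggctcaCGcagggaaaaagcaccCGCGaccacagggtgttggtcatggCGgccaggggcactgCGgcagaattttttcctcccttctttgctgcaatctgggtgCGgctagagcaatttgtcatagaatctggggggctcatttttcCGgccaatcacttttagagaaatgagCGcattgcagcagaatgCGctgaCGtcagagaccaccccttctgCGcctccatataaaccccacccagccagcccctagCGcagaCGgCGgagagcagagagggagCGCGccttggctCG
The H19 window held 6 CpG and 57.7% G or C, and 33.7% of the 35116 windows of the same length had fewer CpG. The MEG3 window held 19 CpG, and 57.1% of windows had fewer. The median window held 14. Neither window held the GC box letters GGGCGG, the E box CACGTG or the AP-1 letters TGANTCA on either strand, which 45.0%, 7.26% and 7.71% of all windows held. Of 10 members, RefSeq windows were found for H19, MEG3 and MEST.

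H19 is the host of a microRNA gene, MIR675, whose mature products lie within an exon, and MEG3 and MEST host MIR770 and MIR335. Their mature sequences are printed with the seed, bases 2 to 8, in capitals, because these are the products that the RNA of the hosts can give rise to.
hsa-miR-675-5p: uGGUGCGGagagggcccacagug
hsa-miR-675-3p: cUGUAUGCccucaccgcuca
hsa-miR-770-5p: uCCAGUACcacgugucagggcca
hsa-miR-335-5p: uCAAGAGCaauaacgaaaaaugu
hsa-miR-335-3p: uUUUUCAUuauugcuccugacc
No seed was shared among them. MIR675, MIR770 and MIR335 each had 0 reads in all 18 libraries. Small RNA was not sequenced here, so these zeros do not measure the mature microRNAs.

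Reads per library ranged from 14187401 to 43765330, and log2 CPM of libraries of a group correlated at 0.975 to 0.996. The reads of the epithelial keratins, EPCAM and CDH1 and those of ALDH1A1, AKR1C1 and AKR1B10, enzymes known from A549 cells, were above 1 CPM for all 8 genes of these lists. Of 4 markers of alveolar type II cells, 2 exceeded 1 CPM in any library (NKX2-1 and SFTPC). None of 5 trophoblast markers reached 1 CPM, with a summed level of 0 to 0.806 CPM, while PTPRC was at most at 0.0956 CPM and CD3E at 0 among 4 leukocyte markers, COL1A2 was at most at 0.0529 CPM among 5 fibroblast markers, and 1 of 3 endothelial markers exceeded 1 CPM in any library (CDH5). The summed fibroblast list ran from 6.41 to 89.7 CPM and averaged 14.3 in the control (3 days), 66.2 and 44.9 at SP 3 and 12 days, 13.9 in the control (24 h), 26.9 at SP 3 h and 75.7 at SP 24 h, most of it COL1A1. The leukocyte list, nearly all of it CD14, ran from 2.28 to 37.5 CPM and was likewise highest with SP in each table, and the part of either list in the results on the members was not tested. MALAT1 and NEAT1, nuclear noncoding RNAs, summed to 3540 to 5090 CPM in the first table and to 313 to 945 CPM in the second, so levels are not set against each other across the tables. Fewer cells with a transcript and less of it per cell cannot be told apart in these bulk libraries.

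H19 rose most of all members, and it did so between 3 h and 24 h of SP. The control (24 h) held 7, 9 and 10 reads of H19, SP 3 h held 5, 13 and 8, and SP 24 h held 570, 1181 and 824. In CPM scaled by TMM factors, the usual correction for library composition, these were 0.371, 0.476 and 0.351, then 0.353, 0.422 and 0.326, then 23.1, 26.4 and 27.8. The libraries of control (24 h) and SP 3 h overlapped, and every SP 24 h library lay far above both. On the fitted log2 scale SP 24 h was 6.01 ± 0.19 (SE, n = 3 per group) above the control and 6.10 ± 0.19 above SP 3 h, against −0.08 ± 0.25 for SP 3 h and control. The ratio of summed reads, scaled for depth, was 66.4 at 24 h (95% counting interval 45.2 to 102, which covers counting error only), 69.6 against SP 3 h (47.4 to 107) and 0.954 for SP 3 h against control (0.532 to 1.71).

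Calling a gene took a fold change of 2 or more and a p under 0.0001 in edgeR after Benjamini-Hochberg adjustment. Of 17377 tested genes 119 were called at 24 h (0.685%), 108 of them higher (0.622%), and H19 ranked 4 by size among them. Between SP 24 h and SP 3 h 5 genes were called (0.0288%), namely H19, FBXO2, PADI3, CRABP2 and SLC16A3, all higher at 24 h, and H19 had the largest fold. No gene of the table was called at SP 3 h against control (0%). H19 passed the filter on low counts in the second table only through its SP 24 h libraries and in the first only through SP 3 days, so it was tested because it was high there.

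**Figure D1:**
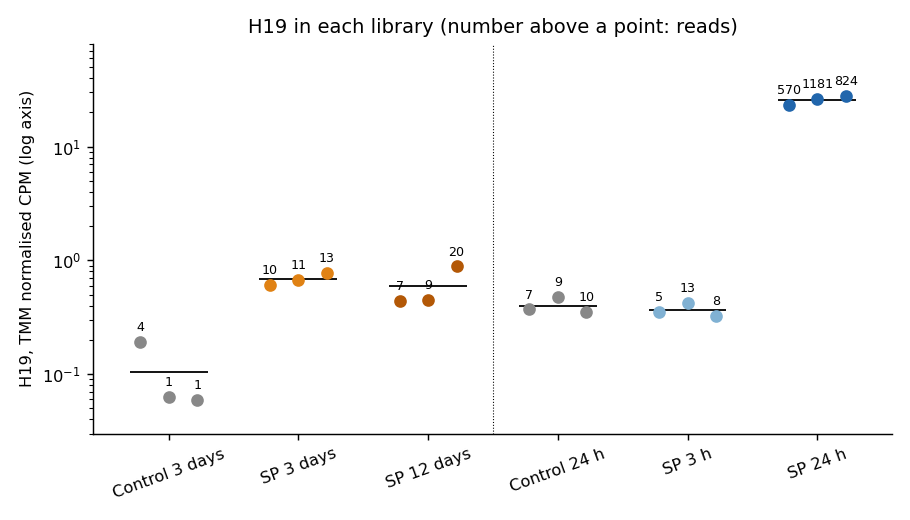
H19 in TMM normalised CPM (log axis) for the 3 libraries of each of the 6 groups, with the number of reads above each point, the group mean as a bar and a dotted line between the 2 tables. The SP 24 h libraries sit at 23.1 to 27.8 CPM, and all other libraries lie below 1 CPM.

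In the longer experiment H19 was counted at the edge of detection. The control (3 days) held 4, 1 and 1 reads (0.191, 0.0627 and 0.0591 CPM), SP 3 days 10, 11 and 13 (0.610, 0.670 and 0.778 CPM) and SP 12 days 7, 9 and 20 (0.443, 0.449 and 0.886 CPM). The control did not overlap either SP group, while the SP groups overlapped each other. SP exceeded the control by a log2 value of 2.56 ± 0.56 at 3 days and 2.38 ± 0.56 at 12 days, and neither was called. As ratios of 34 and 36 summed reads to 6, this came to 6.15 (2.55 to 17.9) and 5.52 (2.31 to 16.0). Without SP 12 days replicate 3, which held 20 reads, the log2 value at 12 days was 1.92.

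IGF2, the growth factor read from the other parental copy of the H19 domain, did not follow H19 at 24 h. Its reads were 20, 45 and 120 in the control (24 h), 30, 87 and 25 at SP 3 h and 84, 157 and 109 at SP 24 h. In CPM the 3 control libraries spread from 1.06 to 4.21 and enclosed the SP 24 h libraries, which lay between 3.40 and 3.68. On the log2 scale the difference was 0.44 ± 0.45 at 24 h and −0.39 ± 0.47 at 3 h. Without control (24 h) replicate 3 these values became 1.03 and 0.22, so the sign at 3 h rested on that library. With GC content and length removed the value at 24 h was −0.17, so IGF2 had no settled direction there. In the first table IGF2 held 22, 35 and 19 reads in the control, 52, 77 and 60 at SP 3 days and 39, 46 and 87 at SP 12 days. Both SP groups lay above the control without overlap (1.46 ± 0.639 CPM in the control, 3.82 ± 0.786 and 2.87 ± 0.855 with SP, SD, n = 3), by a log2 value of 1.41 ± 0.30 and 1.02 ± 0.30, and neither was called. IGF2 shares 37.9% of its exon bases with ENSG00000284779 and 20.4% with INS-IGF2 on the same strand. These held 1 and 0 reads in all 18 libraries, so a share of IGF2 reads may have been set aside as ambiguous in counting.

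The KCNQ1OT1 domain gave a different course for each of its 3 members. CDKN1C, the cyclin-dependent kinase inhibitor p57, was higher from 3 h on. Its reads were 15, 15 and 20 in the control (24 h), 29, 84 and 59 at SP 3 h and 72, 180 and 103 at SP 24 h. That is 0.763 ± 0.0532, 2.39 ± 0.339 and 3.47 ± 0.558 CPM, and the 3 groups did not overlap. The log2 fold change was 1.67 ± 0.22 at 3 h and 2.20 ± 0.21 at 24 h, neither called by edgeR, while DESeq2 called both at the same thresholds. In the first table CDKN1C went from 59, 25 and 46 reads in the control to 165, 178 and 134 at SP 3 days and 85, 79 and 158 at SP 12 days. The control averaged 2.37 ± 0.697 CPM, SP 3 days 9.64 ± 1.46 and SP 12 days 5.44 ± 1.53, each group apart from the others. At 3 days the log2 value of 2.0 ± 0.24 was called, and at 12 days that of 1.19 ± 0.24 was not. SP 12 days lay 0.82 below SP 3 days on the log2 scale (−0.82 ± 0.21), and −1.08 without SP 12 days replicate 3, where the difference was called.

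PHLDA2, a placental growth restraint gene with a pleckstrin homology domain, behaved in the opposite way between 3 and 12 days. It held 301, 182 and 232 reads in the control (3 days), 226, 247 and 204 at SP 3 days and 468, 584 and 413 at SP 12 days, or 13.2 ± 1.57, 13.7 ± 1.43 and 25.7 ± 6.39 CPM in the same order. The control and SP 3 days overlapped, and all SP 12 days libraries were higher than both. Log2 fold changes were 0.05 ± 0.17 at 3 days, 0.95 ± 0.17 at 12 days and 0.90 ± 0.17 for SP 12 days against SP 3 days, and none was called. Without SP 12 days replicate 3 the last 2 became 1.13 and 1.09 and were called. At 3 and 24 h PHLDA2 did not separate from the control, with 28.7 to 44.2 CPM in the control, 38.5 to 54.2 at SP 3 h and 20.5 to 33.5 at SP 24 h.

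KCNQ1OT1, the noncoding RNA of this domain, differed widely between libraries of a group in the second table. Its level there was 10.6, 11.5 and 2.95 CPM in the control, 6.98, 6.19 and 20.7 at SP 3 h and 5.71, 5.60 and 3.55 at SP 24 h. The lowest and the highest of these 9 values belonged to control (24 h) replicate 3 and SP 3 h replicate 3. These had the lowest and the highest MALAT1 and NEAT1 sum (313 and 945 CPM). Other libraries did not all follow that sum. At sums of 886 and 868 CPM, SP 24 h replicate 2 and control (24 h) replicate 2 had 5.60 and 11.5 CPM of KCNQ1OT1. The part of nuclear RNA content in this gene's values was not tested. The log2 fold change was 0.45 ± 0.57 at 3 h and −0.74 ± 0.58 at 24 h, and the former was −0.34 without SP 3 h replicate 3 and 0.04 without control (24 h) replicate 3. In the first table KCNQ1OT1 had 11.6 ± 1.20 CPM in the control, 21 ± 2.37 with 3 days of SP and 18.1 ± 6.13 with 12 days, and neither SP group overlapped the control. The log2 fold changes were 0.85 ± 0.20 and 0.65 ± 0.20, and the latter was 0.31 without SP 12 days replicate 3, the library with the highest MALAT1 and NEAT1 sum of all 18 (5090 CPM). KCNQ1, which runs across KCNQ1OT1 on the other strand, was higher in the same comparisons (log2 2.23 ± 0.45 and 1.78 ± 0.45). Whether counting used strand is not stated, and the part of KCNQ1 reads in these values was not tested.

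MEG3, the maternally read noncoding RNA of the DLK1 domain on chromosome 14, lay above every control library in all 4 comparisons with control, as did CDKN1C. In the first table it held 775, 622 and 584 reads in the control, 2062, 2054 and 2418 at SP 3 days and 2388, 2659 and 5159 at SP 12 days. The control lay at 34.5 to 39.0 CPM, SP 3 days at 125 to 145 and SP 12 days at 133 to 229, with replicate 3 the highest. This was a log2 value of 1.84 ± 0.18 at 3 days and 2.21 ± 0.18 at 12 days, both called, and 1.93 at 12 days without replicate 3. The call at 3 days was lost with any control library or with SP 3 days replicate 3 left out, at log2 values of 1.76 to 1.87, and that at 12 days without control (3 days) replicate 3, at 2.17. In the second table MEG3 already differed at 3 h, with 21.1, 22.5 and 34.4 CPM in the control, 47.5, 42.1 and 44.9 at SP 3 h and 43.8, 40.6 and 52.9 at SP 24 h. Both SP groups were above every control library and overlapped each other, at log2 values of 0.78 ± 0.19 and 0.81 ± 0.19, and 0.03 ± 0.19 between them. DLK1, the membrane ligand read from the paternal copy next to MEG3, held 6 reads in 5 of the 18 libraries and was not tested.

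PEG10 and MEST, paternally read protein coding genes on chromosome 7, differed little but with small spread. PEG10, a gene derived from a retrotransposon, had 156 ± 6.97 CPM in the control (3 days), 206 ± 5.98 at SP 3 days and 211 ± 19.9 at SP 12 days, and both SP groups lay above the control (log2 0.41 ± 0.08 and 0.44 ± 0.08). In the second table its libraries ran from 144 to 206 CPM in the control, 157 to 228 at SP 3 h and 224 to 287 at SP 24 h, a log2 value of 0.53 ± 0.18 at 24 h. MEST, which codes for a hydrolase-like protein, had 38.9 ± 1.04 CPM in the control (3 days), 64.8 ± 1.12 at SP 3 days and 63.7 ± 3.22 at SP 12 days, without overlap between control and SP (log2 0.74 ± 0.08 and 0.71 ± 0.08). In the second table MEST had 48.5, 36.7 and 43.4 CPM in the control, 36.4, 33.6 and 40.8 at SP 3 h and 58.9, 51.9 and 56.5 at SP 24 h, so that SP 24 h exceeded both other groups. The log2 value was 0.38 ± 0.13 against control and 0.59 ± 0.13 against SP 3 h. MEST exons overlap those of the antisense genes MESTIT1 (10.2%, 90 reads in all), ENSG00000270823 (12.6%, 29 reads) and COPG2 (4.78%, 18858 reads). PEG10 exons overlap those of the antisense gene SGCE by 3.27%, which held 24608 reads. Whether counting used strand is not stated. PEG3, a zinc finger gene on chromosome 19, had 0 reads in 18 libraries of 396517102 reads in sum, which allows a level of up to 0.00757 CPM (3 reads over all libraries).

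**Figure D2:**
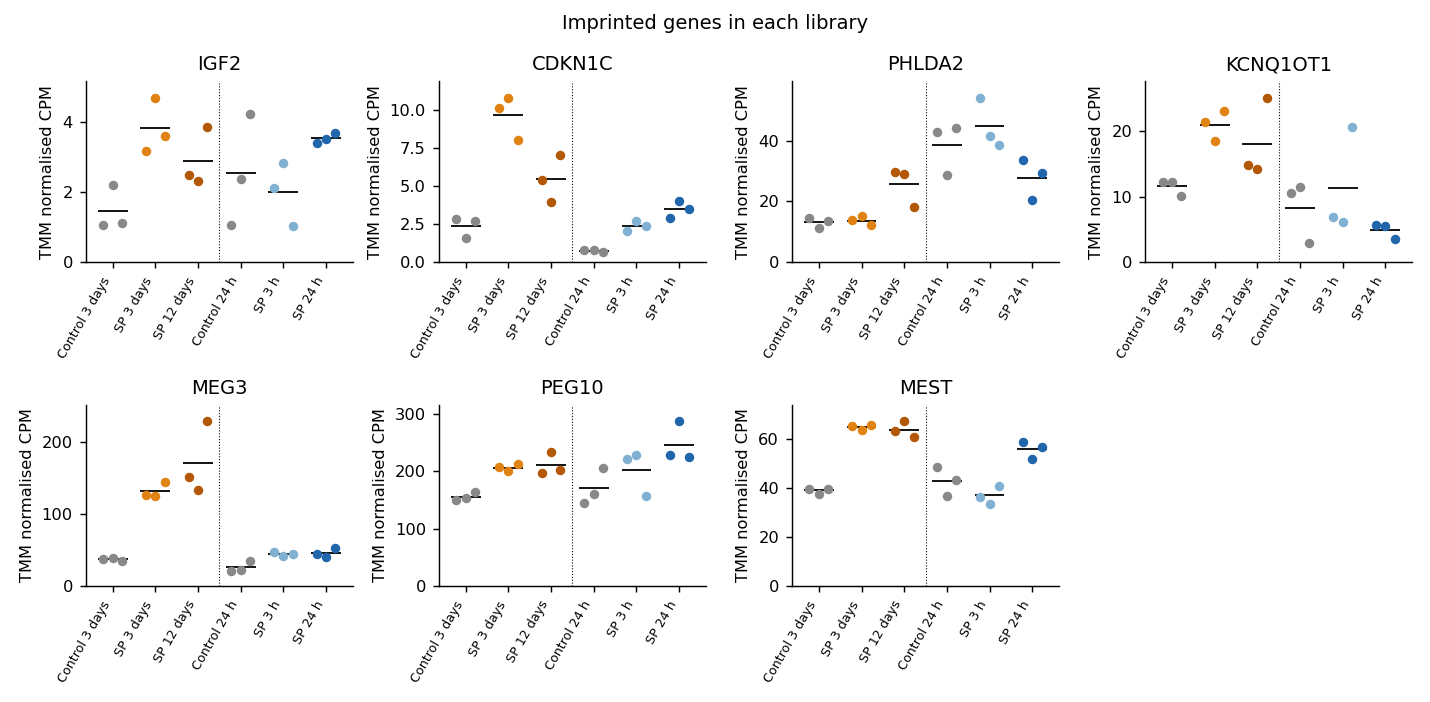
TMM normalised CPM (linear axis from 0) of 7 members in each library, with the group mean as a bar and a dotted line between the 2 tables. MEG3, MEST and CDKN1C stand above the control in both SP groups of the first table, and KCNQ1OT1 has a single high library at SP 3 h (20.7 CPM).

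Levels per kilobase of exon order the members within a group, with length taken over all annotated exons of a gene. This was 3462 bases for H19, 23224 for MEG3 and 92625 for KCNQ1OT1, so the order depends on that choice. In the control (24 h) PHLDA2 stood at 42.0 ± 9.30 CPM per kb, PEG10 at 25.5 ± 4.79, MEST at 8.99 ± 1.24, MEG3 at 1.12 ± 0.314, IGF2 at 0.357 ± 0.221, CDKN1C at 0.308 ± 0.0214, H19 at 0.115 ± 0.0194 and KCNQ1OT1 at 0.0902 ± 0.0507. IGF2 and CDKN1C, and H19 and KCNQ1OT1, did not differ beyond their spread there. At SP 24 h H19 stood at 7.44 ± 0.707, above MEG3 at 1.97 ± 0.275 and below MEST at 11.7 ± 0.749 CPM per kb. Without division by length MEG3 was above H19 there, at 45.8 ± 6.38 against 25.8 ± 2.45 CPM. In the control (3 days) PEG10 led at 23.3 ± 1.04, followed by PHLDA2 at 14.3 ± 1.70 and MEST at 8.16 ± 0.219, and H19 was last at 0.0301 ± 0.0218 CPM per kb.

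Counted over the members, 2 of the 8 tested were called higher at 3 days (CDKN1C and MEG3) and 1 at 12 days (MEG3), beside 8.44% and 9.11% of all tested genes called, 6.58% and 6.88% of them higher. H19 was the 1 called at 24 h and between SP 24 h and SP 3 h, and no member was called lower in any comparison. At 3 h 0 were called by edgeR, beside 0% of all genes, and 1 by DESeq2, and 2 had an unadjusted p under 0.05. Between SP 12 days and SP 3 days 0 were called by either tool, beside 0.18% of all genes by edgeR. There 2 had an unadjusted p under 0.05. For DESeq2 counts and for counts at an unadjusted p, here and below, no share over all genes is given. Libraries of SP and control did not overlap and SP was higher for 7 members at 3 days and 8 at 12 days, and for 2 at 3 h and 5 at 24 h. All genes gave such a separation upward in 30.5%, 28.7%, 15.6% and 24.6% of cases. The members' median log2 fold change was 1.13, 0.98, 0.23 and 0.48, beside a median over all genes of −0.02, 0, 0 and −0.01. As the genes were gathered with these values known, the counts describe them and support nothing further.

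**Figure D3:**
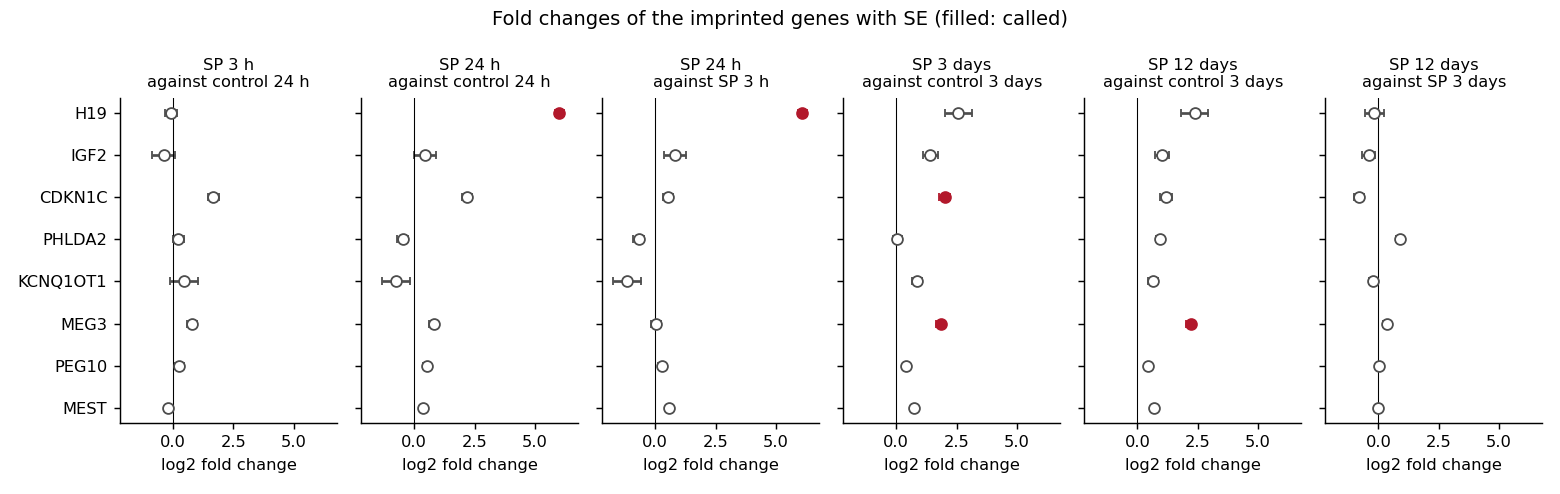
Fitted log2 fold change with its SE (bars) of the 8 tested members in 6 comparisons, with called values filled. H19 stands at 6.01 and 6.10 in the comparisons of SP 24 h, and no other member exceeds 2.20 in the second table.

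The genes around H19 were not members and were tested with the whole table. Within 500 kb of H19, 0 of 12 tested genes were called at 24 h by edgeR, 9 had an unadjusted p under 0.05, and at an adjusted p under 0.05 6 were higher and 2 lower, beside 16.8% and 12% of all genes. Their median log2 fold change was 1.16, beside −0.01 over all genes, and the neighbours named at 24 h were picked after their values were seen. KCNQ1, a potassium channel gene that runs across KCNQ1OT1, was among those that rose (log2 2.67 ± 0.32, adjusted p = 0.000432 by edgeR, 345 against 35 reads). LSP1 (141 against 17 reads) and IFITM10 (114 against 15 reads) were barely counted in the control, and their log2 values were 2.43 ± 0.42 and 2.27 ± 0.38. ASCL2, a transcription factor gene of the same region, held 54 reads at SP 24 h and 0 in the control (24 h), which is at least 12.1-fold higher against 3 reads over the control group. Genes as low as these in the control enter the test mainly through libraries in which they are high, as H19 did, so no p is given for these 3 and the count of neighbours that rose is a description. MRPL23, the nearest tested gene at 57.3 kb, was lower (log2 −0.70 ± 0.16). At 3 days 2 of 13 were called, both higher, beside 8.44% of all genes called and 6.58% called higher. These were DUSP8 (2.11 ± 0.12, adjusted p = 1.38e-09, edgeR) and ENSG00000250644 (1.24 ± 0.18, adjusted p = 4.06e-05, edgeR). The median of the 13 was 0.84, beside −0.02 over all genes. ENSG00000250644 shares exons with CTSD and IFITM10, so reads may be split or set aside among these genes and their values are uncertain. Next to MEG3 the noncoding RNAs MEG8 and MEG9, which lie in the same domain, were both called higher at 12 days, and MEG8 also at 3 days (values below).

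**Figure D4:**
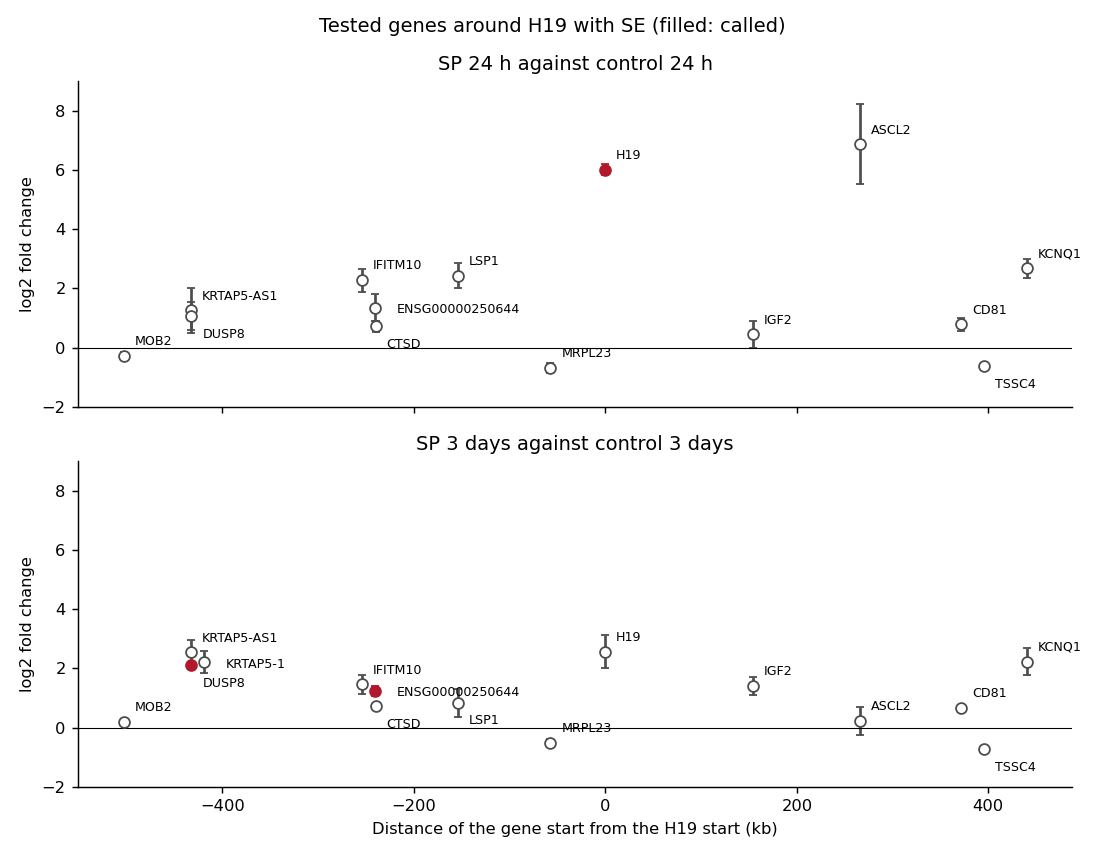
Fitted log2 fold change with its SE of tested genes within 500 kb of H19, against the distance of their start from that of H19 in kb, at SP 24 h and SP 3 days, with called genes filled. H19 is the filled point at 24 h, and the value of ASCL2 there is a fit against a control with 0 reads and no measure of size.

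The other imprinted genes, 41 by list and 29 or 28 tested, were counted by edgeR over the whole table. This list and the gene lists below were chosen with earlier results of these data known, so their p-values are no independent support. At 3 days 3 were called higher and 1 lower, at 12 days 4 higher and 0 lower, beside 6.58%, 1.86%, 6.88% and 2.23% of all genes, and the list's median log2 fold change was 0 and 0.38. TFPI2, a protease inhibitor gene, rose from 151 ± 19.8 CPM to 707 ± 97.6 at 3 days and 814 ± 121 at 12 days. Its log2 values were 2.23 ± 0.14 and 2.43 ± 0.14 (adjusted p = 8.94e-09 and 3.5e-09, edgeR). TFPI2 was not among the genes tested as neighbours of PEG10 (SGCE, CASD1 and PPP1R9A). The median log2 fold change of these neighbours was −0.51 at 3 days and −0.4 at 12 days, and none was called. MEG8 rose from 58 reads to 187 at 3 days and 274 at 12 days (log2 1.81 ± 0.25 and 2.10 ± 0.24, adjusted p = 1.79e-05 and 2.62e-06, edgeR). L3MBTL1, a chromatin reader gene, was called at 3 days only by these thresholds (log2 1.34 ± 0.18, adjusted p = 2.05e-05, edgeR) and stood at 1.08 at 12 days. DIRAS3, a small GTPase gene, was the 1 called lower at 3 days (−1.75 ± 0.27), and MEG9 (2.56 ± 0.40, 80 against 12 reads) and NDN, a melanoma antigen family gene (4.05 ± 0.57, 79 against 4 reads), completed the calls at 12 days. These last 3 were too low for the rule on named genes and are named after their values were seen. MEG9 and NDN, at 0.217 and 0.075 CPM in the control, entered the test mainly through SP libraries in which they were high. The count of 4 higher at 12 days is therefore a description.

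At 24 h 0 of the 28 were called by edgeR and 3 by DESeq2, 13 had an unadjusted p under 0.05, and at an adjusted p under 0.05 8 were higher and 1 lower, beside 16.8% and 12% of all genes. TFPI2 (log2 1.16 ± 0.12, adjusted p = 0.00019), CPA4, a carboxypeptidase gene near MEST (1.97 ± 0.22, adjusted p = 0.000313), and KCNQ1 had the smallest p by edgeR. In the first table CPA4 was higher at 3 and 12 days (3.79 ± 0.52 and 4.94 ± 0.51) and was not called. KCNQ1 was likewise higher and not called there (2.23 ± 0.45 and 1.78 ± 0.45). These first table values are named after they were seen. At 3 h 0 were called by edgeR and 1 by DESeq2, 12 had an unadjusted p under 0.05, and at an adjusted p under 0.05 5 were higher and 1 lower, beside 7.39% and 4.11% of all genes. INPP5F, a phosphoinositide phosphatase gene (1.01 ± 0.12, adjusted p = 0.00121), and BLCAP (0.80 ± 0.13, adjusted p = 0.00567) were higher and WT1, a zinc finger transcription factor gene, lower (−1.62 ± 0.23, adjusted p = 0.00286), all by edgeR. Between SP 12 days and SP 3 days 0 were called by edgeR or DESeq2, 8 had an unadjusted p under 0.05, and SNHG14, the long host RNA of the chromosome 15 domain, had the smallest p (0.64 ± 0.10, adjusted p = 0.000942, edgeR).

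**Figure D5:**
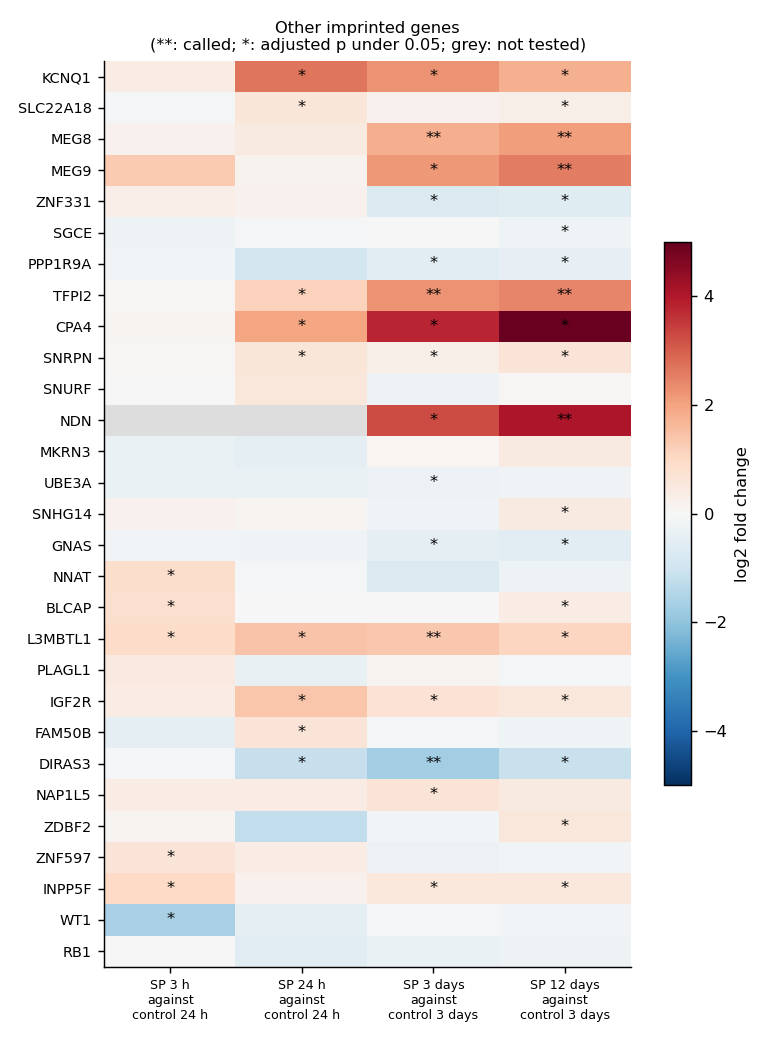
Colour shows the fitted log2 fold change of the imprinted genes outside the 10 members in the 4 comparisons with control, with 2 marks for called, 1 mark for an adjusted p under 0.05 by edgeR and grey for not tested. TFPI2 and MEG8 carry 2 marks at 3 and 12 days, and no gene carries 2 marks at 3 or 24 h.

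Of 10 genes that keep or read the imprinting marks, 9 were tested. By edgeR 0 were called in any comparison, beside 0% to 9.11% of all genes, with 2 to 7 at an unadjusted p under 0.05. At an adjusted p under 0.05, 1 was higher and 2 lower at 3 h, beside 7.39% and 4.11% of all genes. At 24 h 1 was higher and 1 lower, beside 16.8% and 12% of all genes. CTCF, the insulator protein of the H19 and IGF2 control region, was lower in all 4 comparisons with control: from 112 ± 10.0 CPM to 54.0 ± 6.50 at 3 h (log2 −1.06 ± 0.12, adjusted p = 0.00103, edgeR) and 87.7 ± 3.13 at 24 h (−0.35 ± 0.11, adjusted p = 0.0432, edgeR), and from 89.8 ± 3.76 to 57.7 ± 0.721 at 3 days and 57.7 ± 7.60 at 12 days (−0.64 ± 0.09 in both, adjusted p = 3.94e-05 and 3.47e-05, edgeR). DNMT3B, a de novo DNA methyltransferase, was higher in all 4 comparisons with control, at 3 h (log2 1.32 ± 0.16, adjusted p = 0.00153, edgeR), 24 h (1.09 ± 0.16, adjusted p = 0.00127, edgeR), 3 days (0.54 ± 0.12, adjusted p = 0.00159, edgeR) and 12 days (0.36 ± 0.12, adjusted p = 0.0206, edgeR). SETDB1, a histone H3 lysine methyltransferase, was lower at 3 and 12 days (−0.57 ± 0.09 and −0.82 ± 0.09, adjusted p = 9e-05 and 1.94e-06, edgeR) and at 3 h (−0.63 ± 0.15, adjusted p = 0.0251, edgeR).

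Genes of the insulin-like growth factor axis in which IGF2 acts were tested for 15 of 16. At 3 days 2 were called higher and 2 lower, at 12 days 2 higher and 4 lower, beside 6.58%, 1.86%, 6.88% and 2.23% of all genes, and 0 at 3 h or 24 h by edgeR, with 5 and 7 at an unadjusted p under 0.05. The binding proteins IGFBP1 and IGFBP3, which hold the growth factors in the medium, were lower (log2 −1.65 ± 0.12 and −1.23 ± 0.12 at 3 days, −1.70 ± 0.12 and −1.29 ± 0.12 at 12 days), and IGFBP2 was higher (1.19 ± 0.11 and 1.13 ± 0.11), all called. IGFBP7 was called higher at 3 days (1.1 ± 0.09). IGFBP4 (−1.02 ± 0.10) and the adaptor IRS2 (−1.24 ± 0.10) were called lower at 12 days, and IGF2BP2, a protein that binds IGF2 messenger RNA, higher (1.06 ± 0.08).

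CDKN1C was set beside the other cyclin-dependent kinase inhibitors, of which 4 of 6 were tested. CDKN1A, which codes for p21, rose from 128 ± 9.04 CPM to 248 ± 7.30 at 3 days and 546 ± 87.6 at 12 days (log2 0.96 ± 0.11 and 2.09 ± 0.11, adjusted p = 2.25e-06 and 5.65e-10, edgeR), a higher value at 12 days than at 3 days (1.14 ± 0.11, adjusted p = 1.22e-05, edgeR), where CDKN1C was lower. CDKN2C fell by 0.65 and 1.36 on the log2 scale (−0.65 ± 0.09 and −1.36 ± 0.10), and CDKN2D was higher at 3 h (1.63 ± 0.15, adjusted p = 0.000632, edgeR). A list of 4 genes held the paralogues DLK2, PHLDA1 and PHLDA3 and the MEST neighbour COPG2, which is no paralogue of a member. DLK2 was called higher at 3 days (1.25 ± 0.19), beside 6.58% of all genes. In the other comparisons 0 of the 4 were called by edgeR, beside 0% to 9.11% of all genes, with 1 to 4 at an unadjusted p under 0.05. PHLDA1 and PHLDA3 were higher at 12 days (0.79 ± 0.11 and 0.51 ± 0.08, adjusted p = 1.59e-05 and 0.000105, edgeR).

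Among the genes whose log2 CPM ran most like H19 in both tables, of 12581 genes compared over the 9 libraries of each, were SAT1, QPRT, ZMYND8 and ASS1. The Pearson correlation was 0.98 in each table for SAT1, a polyamine acetyltransferase gene, and 0.97 to 0.99 for QPRT, ZMYND8 and ASS1. Libraries of a group share their treatment, so these values mostly restate that the genes are high in the same groups. Their log2 fold changes at 24 h were 1.15 for SAT1, 3.06 for QPRT, 1.86 for ZMYND8 and 2.24 for ASS1. Among the members, MEST ran most like H19 in the second table (0.82) and MEG3 in the first (0.95), each over 9 libraries.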

How the data were processed

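The authors made libraries with the NEBNext Ultra kit, aligned paired reads to GRCh38 with STAR 2.7.9a and counted reads per gene with featureCounts (the submitters' processing notes name the tools). The deposited tables hold these raw counts, without normalization. Whether counting used strand, and how multi-mapping reads were treated, is not given in the sources used here. The study calls the libraries of the second table biological replicates. The sources used here do not say so of the first, where p-values may measure technical spread only.

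Counts were fitted in R 4.3.3 with edgeR 4.0.16 (robust quasi-likelihood, TMM factors 0.957 to 1.04, filterByExpr with a minimum count of 10), all 9 libraries of a table in one model of group, with 17775 and 17377 genes tested. Benjamini-Hochberg adjustment ran over all genes of the fit. The thresholds for calling a gene, 0.0001 for the adjusted p and 2 for the fold, are those of the study, which used DESeq2. Median SEs of a log2 fold change were 0.13 and 0.20. The procedure was tested on simulated data. Alternatives were DESeq2 1.42.0, its size factors in edgeR, no filter, fits of 2 groups, 0.05 as the limit for the adjusted p, a replicate block, GC content and length offsets, and leaving out each library.

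Members and lists were chosen with earlier results of these data known. Named genes were all members, exon overlaps, up to 6 called genes of a list by size with a mean count of at least 50 and no overlap between groups, or, where none was called, up to 3 with the smallest p, and the 5 genes most like H19, of which 1 is not reported here. Neighbours within 500 kb of H19 stood outside this rule at 24 h. Of the listed genes 61369 matched the annotation (GENCODE), and sequences come from RefSeq.

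Libraries with the same replicate number were checked for pairing by the correlation of their deviations from the group means. Between SP 24 h and control (24 h) these were 0.455, 0.153 and 0.456 for numbers 1, 2 and 3, all over 0.1. The numbers may pair these libraries, but libraries with unlike numbers were not compared, so pairing is not shown. The fits reported have no replicate term, and the fit with one is an alternative. SP 3 h against the same control gave −0.075, −0.018 and −0.532, and SP 24 h against SP 3 h 0.028, 0.337 and −0.263. Same-number libraries of the first table gave −0.009 to 0.126.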

Additional observations from a re-analysis of the deposited data

Results flagged for a closer look

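Differences between times of SP exposure led to 4 members being listed here. They come from libraries that were in view when the genes were chosen, SP 24 h against SP 3 h being one of the contrasts that chose them, so the values are a description with no test. H19 was higher at SP 24 h than at SP 3 h by a log2 value of 6.1, with 3 of 3 libraries above all SP 3 h libraries. MEST was higher at SP 24 h than at SP 3 h by 0.59, also in 3 of 3 libraries. CDKN1C was lower at SP 12 days than at SP 3 days (log2 −0.82, lower in 3 of 3 libraries), and PHLDA2 was higher by 0.9 (higher in 3 of 3 libraries). Control libraries at 3 h or 12 days were not analysed here, so time in culture cannot be told apart from time in SP.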

How the results depend on the processing

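H19 kept its call at SP 24 h against control and against SP 3 h under every alternative tried. Its log2 values were 5.35 to 6.14 and 5.68 to 6.24. The alternatives refit the libraries by which H19 was chosen, so they describe its dependence on processing and add no support. Members called numbered 2 at 3 days and 1 at 12 days, and 0 at 3 h and 1 at 24 h. DESeq2 and the fit without a filter on low counts each gave 2 members at 12 days, 1 at 3 h and 2 at 24 h. At 3 days DESeq2 called 3 members. With 0.05 in place of 0.0001 for the adjusted p there were 4 at 3 days and 4 at 12 days, and 1 at 3 h and 2 at 24 h. Other imprinted genes called numbered 4 at 3 days, 4 at 12 days and 0 at 3 h, at 24 h and between SP 24 h and SP 3 h. DESeq2 gave 6 and 6 for the first 2 of these and 1, 3 and 4 for the last 3. No filter gave 2, 3 and 4 for the last 3. An adjusted p under 0.05 gave 8 and 8 for the first 2 and 2, 6 and 6 for the last 3. Fits of the 2 groups compared gave 2 at 12 days. The cause of these shifts was not tested. The share of all genes called under the alternatives is not given, so these counts have no background beside them. With the replicate number as a block (replicate block), other imprinted genes called were 2 at 12 days. The number of members called stayed at 2, 1, 0 and 1. For SP 24 h against control (24 h) the block changed no count. GC content and length removed gave 1 other imprinted gene at 24 h. With the replicate block as well, it gave 1 member at 3 days, 1 other imprinted gene at 24 h and 1 between SP 24 h and SP 3 h. Leaving out 1 library at a time gave 1 to 3 members at 3 days, 0 to 2 at 12 days, 0 to 2 between SP 12 days and SP 3 days and 1 at 24 h, and 1 to 8, 2 to 6 and 0 to 2 other imprinted genes in the first 3 of these. The 2 members between SP 12 days and SP 3 days, and the 8 other imprinted genes at 3 days, were called without SP 12 days replicate 3. No called value of a member changed sign. Depth limits H19 in the first table (6 to 36 reads a group), DLK1 and PEG3.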
